A study of Mus musculus with 10 samples.

Results

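The fatty acid synthesis genes described here are Srebf1, Thrsp, Acly, Me1, Acaca, Fasn, Scd1 and Gpam. All probe sets were taken whose gene symbol in the platform table is one of these 8 names, which gave 9 of the 12488 probe sets of the array and covered 7 of the 8 genes. No probe set carries the symbol of Acaca, so the carboxylase step was not analysed here. Scd1 has 3 probe sets and each of the other genes has 1. Of the 9 probe sets, 8 passed the filter on dim values and were tested. The third Scd1 probe set, 94058_r_at, read between 8.5 and 32.1 scaled intensity units, fell below the filter and has levels only.

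RNA from mouse hepatocytes was hybridised to 10 oligonucleotide arrays, which fall into 4 groups. They were 2 normoxic untreated arrays, 2 normoxic adeno-treated arrays, 3 hypoxic adeno-treated wild-type arrays and 3 hypoxic arrays labelled HIF-1alpha null. The labels number the arrays within each group, from 1 to 2 in normoxia and from 1 to 3 in hypoxia, and no normoxic null array was analysed here. The sources used here give neither the oxygen level nor the time in hypoxia, nor the adeno vector, the genotype of normoxic cells, how HIF-1alpha was removed or whether null cells were adeno-treated. They also do not say whether arrays came from separate cultures. The p-values therefore measure only the spread between these arrays, which may be technical. Of 20 listed hepatocyte marker genes 15 were found on the array, all above the filter. Their summed intensity was between 42451.9 and 69232.3 on every array. Bright genes such as Alb, at 8038.9 to 13761.2, weigh most in this sum, and no reference tissue was set beside it. The sum shows that hepatocyte markers were expressed and does not check the purity of the cells. The targeted gene Hif1a read 703.2 to 961.8 on the wild-type and 850.0 to 1647.1 on the null-labelled arrays by probe set 98628_f_at, and 704.3 to 1095.5 and 910.3 to 1689.4 by 98629_f_at. Both probe sets were higher on the null-labelled array in all 3 same-number pairs. The removed part of the gene is not given, so they do not check the label.

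Fatty acid synthesis turns citrate exported from mitochondria into long-chain fatty acids. ATP citrate lyase (Acly) releases acetyl-CoA in the cytosol, acetyl-CoA carboxylase (Acaca) makes malonyl-CoA, and fatty acid synthase (Fasn) builds palmitate with NADPH that malic enzyme (Me1) helps to supply. Stearoyl-CoA desaturase (Scd1) then makes monounsaturated fatty acids, and the mitochondrial acyltransferase Gpam starts their entry into glycerolipids. In liver these genes are known targets of insulin and dietary carbohydrate, acting in part through the transcription factor SREBP-1, which Srebf1 encodes, and Thrsp (Spot 14) encodes a nuclear-cytosolic protein that promotes lipogenesis.

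Stretches of 100 bases just upstream of annotated transcription starts are shown for Fasn, whose hypoxic arrays all read below its normoxic ones. They are also shown for Thrsp and Acly, the members that read higher on the null-labelled array in all 3 same-number pairs. The stretches are RefSeq sequences of the GRCm38.p6 build, written 5′ to 3′ on the minus strand, on which all 3 genes lie, at chr11:120824548-120824647 for Fasn, chr7:97417551-97417650 for Thrsp and chr11:100528001-100528100 for Acly. The annotated Fasn gene reaches further upstream than the start used here. Capitals mark exact matches, on either strand, to the 5 motifs searched, which were CCAAT of NF-Y, GGGCGG of Sp1, ACGTG of the hypoxia response element, CACGTG of the E-box, which contains ACGTG, and the core TCACNCCAC of the sterol regulatory element.
Fasn: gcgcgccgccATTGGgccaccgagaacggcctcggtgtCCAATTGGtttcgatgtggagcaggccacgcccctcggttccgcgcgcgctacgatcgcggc
Thrsp: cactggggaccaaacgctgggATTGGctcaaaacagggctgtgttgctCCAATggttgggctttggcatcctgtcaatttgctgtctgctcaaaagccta
Acly: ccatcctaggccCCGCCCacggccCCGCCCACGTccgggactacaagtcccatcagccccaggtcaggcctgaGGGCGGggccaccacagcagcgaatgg
In the Fasn stretch, CCAAT matched 3 times, with first bases 90, 62 and 59 bases upstream of the start, and the last pair overlap as CCAATTGG. Thrsp held CCAAT at 79 and 52 bases upstream. The Acly stretch held 3 GGGCGG matches, at 88, 76 and 27 bases upstream, and an ACGTG match at 71 bases upstream that overlaps one of them. Promoter windows of 300 bases, 250 before and 50 after a start, were found for 7 of the 8 genes, 11 windows in all, with none for Scd1. Among these windows CCAAT occurred in 7 of 11, against 37.4% of the 32851 promoter windows of the reference table. GGGCGG occurred in 5 of 11 against 35.7%, and ACGTG in 2 of 11, those of Acly and Me1, against 19.6%. CACGTG and TCACNCCAC had no match in the 11 windows, against 7.15% and 1.24% of all windows. A match describes letters only and no binding was measured.

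Fasn read lower on the hypoxic arrays. On the normoxic untreated arrays it read 492.6 and 545.6 for numbers 1 and 2, and on the adeno-treated arrays 505.1 and 523.2. The hypoxic wild-type arrays read 383.8, 286.7 and 342.7 for numbers 1, 2 and 3, and the null-labelled arrays 366.1, 335.0 and 461.8. All 6 hypoxic arrays lay below all 4 normoxic arrays, a separation in this direction seen in 2.75% of the 7453 probe sets tested. The group means were 519 ± 37.5 (SD, n = 2) untreated, 514 ± 12.8 (n = 2) adeno-treated, 388 ± 66.1 (n = 3) null-labelled and 338 ± 48.7 (n = 3) wild type. In this order the normoxic groups did not differ beyond their spread, nor did the hypoxic groups, while adeno-treated and null-labelled arrays did not overlap. In RNA from bulk cells, fewer expressing cells and less RNA per cell cannot be told apart.

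**Figure D1:**
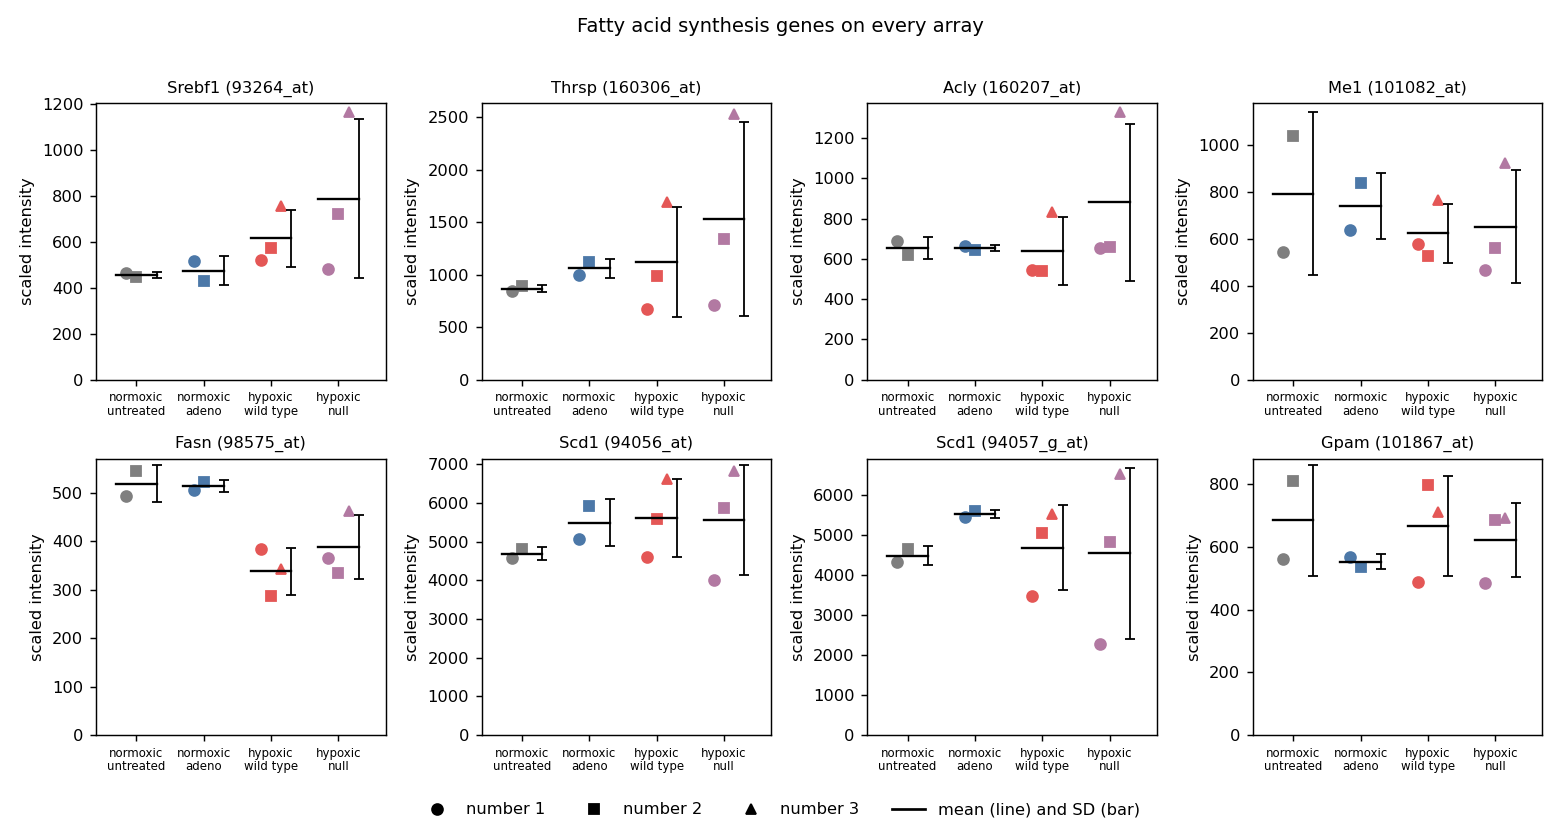
Scaled intensity of the 8 tested probe sets on every array, by group on the x axis, with circles, squares and triangles for numbers 1, 2 and 3, a line for the group mean and a bar for the SD. The 6 hypoxic Fasn arrays sit between 286.7 and 461.8, below the normoxic arrays at 492.6 to 545.6, and the triangles top both hypoxic groups for 6 of the 8 probe sets.

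The comparison of the hypoxic with the normoxic groups, each the mean of its group means, uses the most arrays and mixes genotype and adeno treatment. Here Fasn differed by -0.52 on the log2 scale of value plus 4.7 (SE 0.14, 95% interval -0.83 to -0.21, limma adjusted p = 0.115), which did not pass the threshold of 0.05. With the sample number as a replicate block, Fasn fell by 0.59 (SE 0.13, adjusted p = 0.0152), and it was the only member called in any comparison in that fit. This is 1 of 8 members against 13.0% of all tested probe sets called by the same rule in either direction, and 7.33% called lower, so the members' share is near the background. Without the block 0 of 8 members passed in limma, and 1.46% of all probe sets were called. At an unadjusted p under 0.05 stood 2 of 8, Fasn and Srebf1, beside 15.2% of all probe sets. The blocked call of Fasn was lost when any of the 4 number 2 arrays was left out: the adjusted p was 0.0700 without untreated number 2, 0.0723 without adeno-treated number 2, 0.0626 without wild-type number 2 and 0.0676 without null-labelled number 2. It held without both number 3 arrays (adjusted p = 0.0201). The blocked difference cannot change when they are left out, since no normoxic array has that number, and only its spread was rechecked. Cell type markers moved in the same blocked comparison. Of the 15 hepatocyte markers 9 were called lower (list median -0.35), beside 7.33% of all tested probe sets. Of the 12 tested stellate cell and fibroblast markers 7 were called higher (list median 0.45), beside 5.72%. Without the block 0 of either list passed in limma (3 and 0 at an unadjusted p under 0.05), with medians of -0.31 and 0.01. Their part in the fall of Fasn was not tested.

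Between hypoxic wild type and normoxic adeno-treated cells, which asks how adeno-treated cells respond to hypoxia, Fasn differed by -0.61 (SE 0.20, 95% interval -1.05 to -0.17, unadjusted p = 0.0114, limma adjusted p = 0.424). The arrays of the groups did not overlap, as for 13.1% of all tested probe sets in this direction. Within sample numbers the difference was -0.39 for number 1 and -0.86 for number 2. The null-labelled arrays were compared with the same normoxic adeno-treated arrays, and Fasn differed there by -0.42 (SE 0.20, adjusted p = 0.538), by -0.46 for number 1 and -0.64 for number 2. Groups did not overlap there either, as for 12.1% of tested probe sets. No member passed in either comparison, in which 0.322% and 0.429% of all probe sets were called without the block, and 2.23% and 5.78% with it. At an unadjusted p under 0.05 in limma, 1 of 8 members (Fasn) stood in the first, beside 7.93% of all probe sets, and 0 in the second, beside 9.74%, without the block.

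Between null-labelled and wild-type hypoxic arrays, the comparison that asks what differs without HIF-1alpha, Fasn differed by 0.19 (SE 0.18, 95% interval -0.20 to 0.59, adjusted p = 0.999). The difference was -0.07 for number 1, 0.22 for number 2 and 0.43 for number 3. The direction thus varied between numbers, and the interval spans 0.

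Srebf1, the regulator gene, read highest on number 3 of the null-labelled arrays. Its values were 466.0 and 447.3 on the untreated arrays, 518.7 and 429.4 on the adeno-treated arrays, 520.2, 572.0 and 757.9 in hypoxic wild type and 481.2, 721.0 and 1166.7 on the null-labelled arrays. Every wild-type array stood above both adeno-treated arrays, as for 11.6% of tested probe sets, but wild-type number 1 only just did so, and null-labelled number 1 lay within the normoxic range. The hypoxic minus normoxic difference was 0.53 (SE 0.23, 95% interval 0.02 to 1.04, unadjusted p = 0.0437, limma adjusted p = 0.308), and 0.29 with the block (adjusted p = 0.239). With the block and without null-labelled number 1 it was 0.46 (adjusted p = 0.0420). Against normoxic adeno-treated cells the difference was 0.36 (SE 0.32, adjusted p = 0.842) in wild type and 0.64 (SE 0.32, adjusted p = 0.558) on the null-labelled arrays.

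Thrsp had the widest range of the tested members, 3.75-fold between its lowest and highest array. It read 843.0 and 889.6 untreated, 997.5 and 1123.6 adeno-treated, 674.7, 981.6 and 1694.5 in hypoxic wild type and 712.3, 1334.9 and 2532.6 on the null-labelled arrays. The normoxic arrays were close to each other, while the hypoxic number 1 arrays lay below all of them and the number 3 arrays above all of them. Mean differences from normoxia were therefore small beside their errors: -0.03 (SE 0.48, adjusted p = 0.993) for wild type against adeno-treated and 0.30 (SE 0.34, adjusted p = 0.732) for the hypoxic against the normoxic groups. The latter turned to -0.10 with the block. Leaving out the number 3 arrays gives the same value by design, since no normoxic array has that number.

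Acly, which supplies acetyl-CoA, was steady in normoxia at 691.3 and 617.1 untreated and 666.0 and 643.1 adeno-treated. It read 543.1, 539.5 and 833.4 in hypoxic wild type and 654.7, 658.8 and 1330.2 on the null-labelled arrays. The null-labelled array was the higher one in all 3 same-number pairs, by 0.27, 0.29 and 0.67 on the log2 scale, and Thrsp was the other member for which this held, by 0.08, 0.44 and 0.58. Of all tested probe sets, 18.4% were higher in all 3 pairs. The mean null minus wild-type difference of Acly was 0.41 (SE 0.28, 95% interval -0.22 to 1.04, limma adjusted p = 0.999), and with the block it was the same difference with an SE of 0.12 (unadjusted p = 0.00728, adjusted p = 0.281). For Thrsp it was 0.37 (SE 0.43, adjusted p = 0.999). No probe set of the whole array was called by limma in this comparison without the block (252 at an unadjusted p under 0.05), and 0.134% were with it.

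Me1, the NADPH-producing malic enzyme, varied most within normoxia. It read 545.0 and 1037.1 untreated, 637.8 and 836.8 adeno-treated, 577.1, 525.7 and 765.0 in hypoxic wild type and 465.5, 561.5 and 921.8 on the null-labelled arrays, so every group overlapped every other. The hypoxic minus normoxic difference was -0.26 (SE 0.24, adjusted p = 0.665) and -0.48 with the block (SE 0.16, adjusted p = 0.0744). With the block Me1 passed when either of these arrays was left out, at -0.67 (adjusted p = 0.0257) without untreated number 1 and -0.65 (adjusted p = 0.0189) without wild-type number 1.

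Scd1, the desaturase, gave the brightest probe sets of the list, a scale that does not rank genes against each other. Probe set 94056_at read 4570.4 and 4809.4 untreated, 5064.0 and 5916.7 adeno-treated, 4606.4, 5593.1 and 6614.1 in hypoxic wild type and 4017.8, 5868.5 and 6814.3 on the null-labelled arrays. The other tested probe set, 94057_g_at, spread more in hypoxia, from 2260.2 on null-labelled number 1 to 6513.2 on null-labelled number 3. Without the block their hypoxic minus normoxic differences had opposite signs, 0.12 (SE 0.16) and -0.19 (SE 0.26), each with a limma adjusted p of 0.795. With the block both were below 0, at -0.03 (SE 0.09, limma adjusted p = 0.862) and -0.42 (SE 0.17, adjusted p = 0.135). The dim 94058_r_at, fitted without the filter and without the block, differed by -0.40 (SE 0.29, adjusted p = 0.651). Both brighter probe sets, and Thrsp, were higher on both adeno-treated than on both untreated arrays, as were 24.6% of tested probe sets. Those differences were 0.22 (SE 0.25), 0.30 (SE 0.41) and 0.29 (SE 0.53), and no probe set of the array was called by limma between the normoxic groups without the block (620 at an unadjusted p under 0.05), with 0.255% called with it.

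Gpam, the first acyltransferase of glycerolipid synthesis, read 560.4 and 810.5 untreated, 569.2 and 536.4 adeno-treated, 488.9, 797.1 and 712.4 in hypoxic wild type and 485.6, 686.1 and 693.8 on the null-labelled arrays. The number 1 arrays were the lowest of both hypoxic groups. Null-labelled arrays read below wild type in all 3 same-number pairs, as did 14.3% of tested probe sets, by 0.01, 0.21 and 0.04 on the log2 scale. The mean difference was -0.09 (SE 0.23, adjusted p = 0.999).

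Over the 8 tested members, the median log2 difference was -0.05 for hypoxic wild type against adeno-treated (all tested probe sets -0.02), 0.11 for null-labelled against wild type (all 0.02) and 0.08 for hypoxic against normoxic groups (all 0.00). Of the 8 members 3, 5 and 5 were above 0 in these comparisons. With the block the signs shifted downward in the comparisons with normoxia. The hypoxic minus normoxic difference was then below 0 for 7 of 8, all but Srebf1, with a median of -0.12 (all 0.03, with 46.6% of all tested probe sets below 0). Of these 7, Fasn alone passed the threshold, and Gpam and Scd1 (94056_at) lay near 0. For wild type against adeno-treated, 6 of 8 were below 0 with the block, all but Gpam and Srebf1, with a median of -0.38 (all 0.00, with 50.2% below 0), and none passed in limma (3 at an unadjusted p under 0.05).

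**Figure D2:**
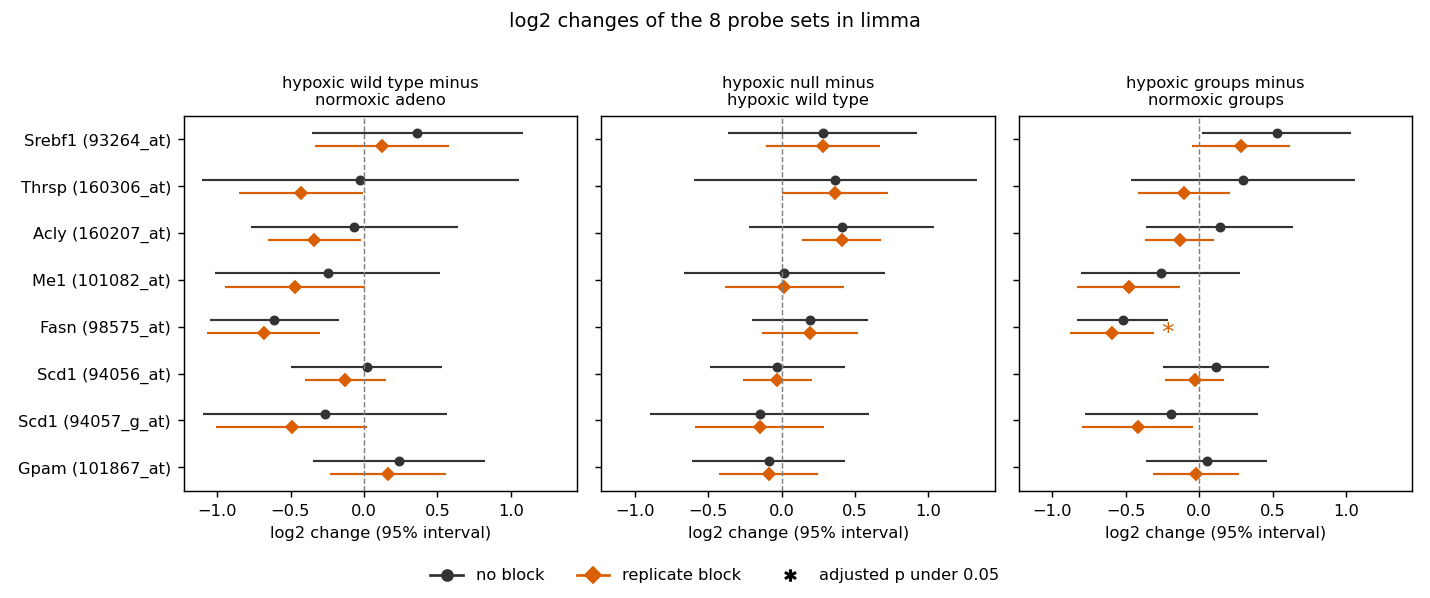
Log2 differences with 95% intervals of the 8 tested probe sets in 3 comparisons, without (black circles) and with (orange diamonds) the replicate block. Fasn against normoxia, at -0.59 with the block, is the point marked as passing the threshold.

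The sample number separated the hypoxic arrays more than the genotype label did. The number 3 array was the highest of its group in both wild type and null-labelled cells for 6 of the 8 tested probe sets (Srebf1, Thrsp, Acly, Me1 and both of Scd1), as for 19.8% of all tested probe sets. From number 1 to number 3, Thrsp differed 2.50-fold in wild type and 3.54-fold on the null-labelled arrays. Corresponding log2 differences were 0.54 and 1.27 for Srebf1, 0.61 and 1.02 for Acly and 0.40 and 0.98 for Me1. Fasn was the exception, at -0.16 and 0.33. Of the sum of squares of the log2 values among the 6 hypoxic arrays, the number took 94.9% for Scd1 (94056_at), 94.7% for Gpam, 90.3% for Thrsp, 74.6% for Acly and 54.1% for Fasn, beside a median of 66.4% over all tested probe sets. The genotype label took 21.9% for Fasn, 21.0% for Acly and 7.31% for Thrsp, beside a median of 7.73%. The number has more levels than the genotype label, so a larger share falls to it even where neither has an effect.

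Cell type markers also differed between the numbers. Between the same arrays, number 3 minus number 1, the median log2 difference was 0.44 in wild type and 0.41 on the null-labelled arrays for the 15 hepatocyte markers, -1.65 and -1.48 for the 12 of 14 stellate cell and fibroblast markers above the filter, and -4.07 and -3.52 for the 3 biliary markers above the filter of 4 on the array. The medians were -0.77 and -0.37 for macrophage, -1.07 and -1.39 for endothelial and -0.82 and -0.54 for adipocyte markers, while lymphocyte markers went the other way, at 0.11 and 1.13. In the hypoxic against the normoxic groups with the block, 1 of 7 macrophage and 1 of 3 biliary markers were called higher, beside 5.72% of all tested probe sets. None of the 2 endothelial, 4 lymphocyte and 3 adipocyte markers was called. The summed stellate and fibroblast level was 9050.6 to 9930.0 untreated, 10176.6 to 10845.8 adeno-treated, 5762.6 to 17603.9 in wild type and 5309.4 to 16430.2 on the null-labelled arrays. Biliary sums were 358.3 to 969.3, 310.0 to 714.1, 183.8 to 2586.6 and 203.9 to 1819.8 in the same order. Adipocyte markers, which mark the other major lipogenic cell, had 6 of 8 genes on the array and 3 above the filter, with sums of 529.3 to 535.0, 509.0 to 579.2, 426.7 to 715.3 and 444.0 to 695.0. The 18S ribosomal control probe sets averaged 12.33 and 12.18 on the log2 scale on the hypoxic number 3 arrays, against 5.98 to 10.25 on the other arrays. No marker gene of these lists was at 0, and the part of these differences in the results above was not tested.

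**Figure D3:**
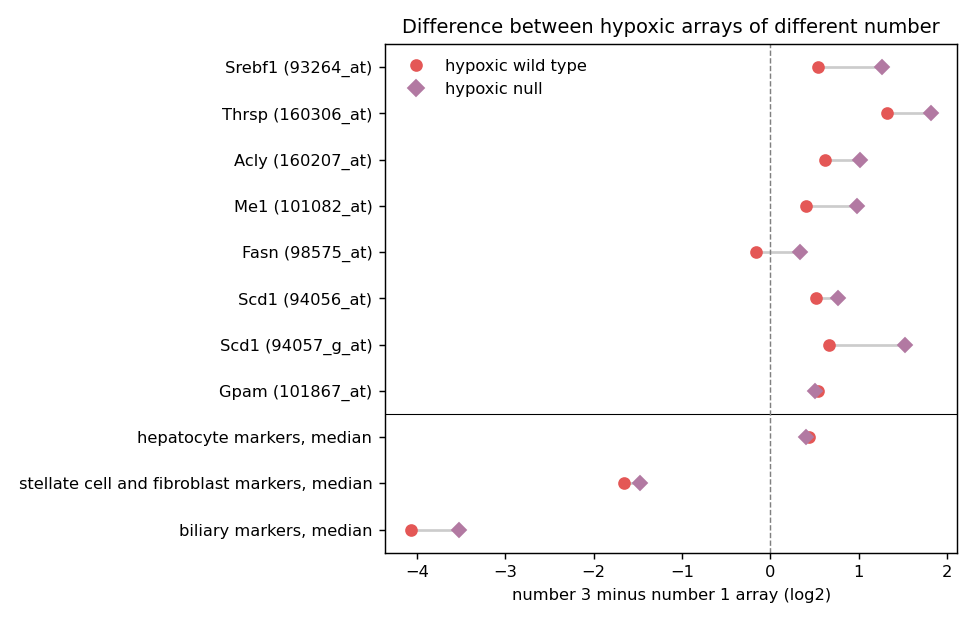
Log2 difference between the number 3 and the number 1 array within hypoxic wild type (circles) and null-labelled (diamonds) cells, for the 8 tested probe sets and for the medians of 3 marker lists. Members other than Fasn lie right of 0 in both groups, with the hepatocyte markers, while the stellate and biliary markers lie left of it.

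Other genes of lipid synthesis were taken from 4 lists, with the brightest tested probe set of each gene, 58 genes in all. In the hypoxic against the normoxic groups 2 of the 58 passed, both lower, beside 1.46% of all tested probe sets. With the block 10 of the 58 passed beside 13.0%, so their share was near the background. No gene of these lists passed in limma without the block in the other 4 comparisons. At an unadjusted p under 0.05 stood 7 of 58 in wild type against adeno-treated (7.93% of all tested probe sets), 4 in null-labelled against wild type (3.38%), 10 in null-labelled against adeno-treated (9.74%) and 4 in adeno-treated against untreated (8.32%). Of the 9 tested genes that supply acetyl-CoA and NADPH, none passed in limma (1 at an unadjusted p under 0.05), and the list median was -0.13 beside 0.00 for all tested probe sets. With the block Pklr, the liver pyruvate kinase, rose by 0.56 on its brightest probe set (adjusted p = 0.0413). This read 204.2 and 236.3 untreated, 306.3 and 427.5 adeno-treated, 383.1 to 487.3 in wild type and 332.5 to 646.2 null-labelled. Adeno-treated number 2 thus lay above wild-type numbers 1 and 3. A dimmer Pklr probe set read 150.1 and 202.2 untreated, 293.6 and 263.8 adeno-treated, 182 to 279.2 in wild type and 193.7 to 444.2 null-labelled. On it every wild-type array lay below adeno-treated number 1. Idh1, the cytosolic isocitrate dehydrogenase, fell by 0.47 with the block (adjusted p = 0.0198). The hypoxic number 3 arrays take no part in these blocked differences. On them Idh1 read 795.6 in wild type and 813.2 null-labelled, beside 765.5 to 799.8 in normoxia, so they did not show its fall.

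Among the 10 genes of elongation and desaturation, Hacd3, a dehydratase of fatty acid elongation, fell. It read 1129.1 and 1106.7 untreated, 899.6 and 944.8 adeno-treated, 650.3, 653.6 and 666.1 in hypoxic wild type and 594.4, 602.7 and 676.3 on the null-labelled arrays. The 6 hypoxic arrays were close together and all below the normoxic ones, and the difference was -0.66 (SE 0.10, limma adjusted p = 0.0125). A dimmer Hacd3 probe set, 93212_at, differed by -0.47 (adjusted p = 0.692). The call of Hacd3 was lost without any of the 4 normoxic arrays, at an adjusted p of 0.0783 without untreated number 1, 0.0842 without untreated number 2, 0.0600 without adeno-treated number 1 and 0.0905 without adeno-treated number 2. Scd2, a desaturase related to Scd1, had a smaller p than other genes of the list in wild type against adeno-treated, at 0.90 (SE 0.24, adjusted p = 0.282). Its probe set 162077_f_at read 326.4 and 275.5 on the adeno-treated arrays and 524.8 to 627.0 in wild type, but 417.3 and 662.2 untreated. A dimmer Scd2 probe set, 95758_at, was closer between them, at 364.4 and 378.7 adeno-treated and 450 to 561 in wild type. It read 368.8 and 626.5 untreated. Mid1ip1, the Thrsp paralogue that activates acetyl-CoA carboxylase, differed by -0.56 in wild type against adeno-treated (adjusted p = 0.486) and by 0.56 in null-labelled against wild type (unadjusted p = 0.0112, adjusted p = 0.999). On its brightest probe set, wild-type arrays read 352.6 to 399.0 and null-labelled arrays 510.0 to 629.5. These did not overlap, as for 4.04% of tested probe sets. A dimmer Mid1ip1 probe set read 89 to 259.2 in wild type and 181.3 to 390.7 on the null-labelled arrays, which overlap. On it, too, the null-labelled array was the higher one in each same-number pair. The elongase gene Elovl2 fell by 0.70 with the block (adjusted p = 0.0280). Its hypoxic number 3 arrays, at 205.6 in wild type and 266.6 null-labelled, lay within the normoxic range of 115.9 to 281.3.

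Triglyceride assembly and storage held 20 tested genes, of which 4 were above 0 in the hypoxic minus normoxic groups, with a median of -0.21. Angptl4, an inhibitor of lipoprotein lipase, fell by 1.23 (SE 0.20, limma adjusted p = 0.0167) on its brightest probe set, 96119_s_at. This probe set read 463.6 and 489.8 untreated, 490.1 and 521.9 adeno-treated, 279.8, 232.2 and 193.5 in wild type and 258.2, 192.9 and 122.5 on the null-labelled arrays. Probe sets of Angptl4 disagreed: 102114_f_at differed by -0.51 (adjusted p = 0.148) and 96118_at by 0.93 (adjusted p = 0.261), so no direction is given for the gene. The call on 96119_s_at was lost without each normoxic array, at an adjusted p of 0.0783 and 0.113 without untreated numbers 1 and 2 and 0.0719 and 0.108 without adeno-treated numbers 1 and 2, and at 0.0502 without null-labelled number 2. Plin2, a coat protein of lipid droplets, read 4749.8 and 4795.4 adeno-treated, 3154.2, 3362.3 and 3027.9 in wild type and 4249.2, 3863.0 and 2998.0 on the null-labelled arrays. It differed by -0.59 in wild type against adeno-treated (SE 0.16, adjusted p = 0.300), and with the block it fell by 0.33 in the hypoxic against the normoxic groups (adjusted p = 0.0392). In that fit Cideb, which encodes a lipid droplet protein, fell by 0.74 (adjusted p = 0.00180) and Lpin1, a phosphatidate phosphatase, fell by 1.01 (adjusted p = 0.00471). The fatty acid binding protein gene Fabp5 rose by 0.63 (adjusted p = 0.0198). Wild-type and null-labelled number 3 arrays, which take no part in these differences, read 1356.8 and 910.7 for Cideb, beside 821.7 to 1194.4 in normoxia. For Lpin1 they read 903.8 and 845.0, within the normoxic 602.4 to 1071.1. For Fabp5 they read 216.6 and 300.4, above the normoxic 174.7 to 202.1.

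The 19 tested upstream regulators had a median of -0.01, and none passed in limma (2 at an unadjusted p under 0.05). Nr1h3, which encodes the oxysterol receptor LXRα, an activator of Srebf1, read 381.3 and 476.9 untreated, 442.6 and 543.8 adeno-treated, 282.0 to 435.3 in wild type and 257.6 to 340.9 on the null-labelled arrays. It differed by -0.50 in the hypoxic against the normoxic groups (SE 0.16, adjusted p = 0.189) and fell by 0.60 with the block (adjusted p = 0.00948). The number 3 arrays take no part in the blocked difference. They read 435.3 in wild type, within the normoxic 381.3 to 543.8, and 318.9 null-labelled, below it. Without the block Rxra, the partner of LXRα, differed by 0.59 between the hypoxic and the normoxic groups (adjusted p = 0.130). The insulin-signalling kinase gene Akt2 differed by -0.38 in wild type against adeno-treated (adjusted p = 0.622). Of the supply genes with the smallest p in that comparison, the pentose phosphate enzymes Pgls, Pgd and H6pd differed by -0.31, -0.35 and -0.26, with adjusted p of 0.730, 0.785 and 0.853.

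**Figure D4:**
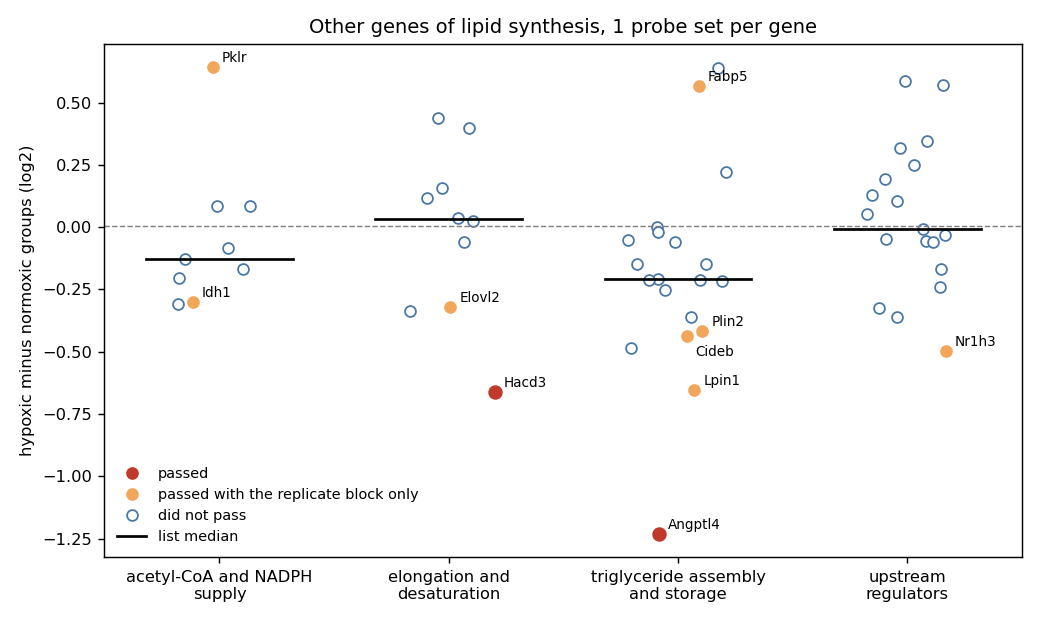
Log2 difference between hypoxic and normoxic groups for 58 genes in 4 lists, 1 probe set per gene, as fitted without the block, with list medians as black lines and the median of all tested probe sets as a dashed line. Filled red points passed the threshold and orange points passed it with the replicate block only. Hacd3, at -0.66, and Angptl4, at -1.23, are the red points.

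The probe sets whose pattern over the 10 arrays was most like that of Fasn were found by the root mean square difference of centred log2 values. The nearest 5 were Skiv2l (0.0905), Smap2 (0.117), Glrx (0.118), Copz1 (0.127) and Nmt1 (0.133), where Fasn itself had an SD of 0.319 over the arrays. Skiv2l read 199.4 to 226.5 in normoxia and 133.3 to 175.6 in hypoxia. No other member came close, since Me1, the nearest, lay at 0.307 and Thrsp, the farthest, at 0.637. For Scd1 (94056_at, SD 0.248) the nearest 5 were Lgals9 (0.0906), Cript (0.0943), Ahcy (0.0988), Gstm6 (0.104) and Mdh2 (0.107).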

How the data were processed

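The authors deposited 1 scaled intensity per probe set and array, on a linear scale, and the sources used here do not say how these were made from the scans. The scaling was kept: the mean between the 2nd and 98th percentiles was 199.6 to 200.0 on every array. Values were offset by 4.7, their 10th percentile over all arrays, before taking log2. The 66 control probe sets and those under the 40th percentile of the mean log2 value were left out, and 7453 were tested. The platform table gives 10855 probe sets 1 symbol, 396 several and 1237 none. Of those with 1 symbol, 10839 matched a gene of GRCm38.p6, and symbols were updated through it.

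limma 3.58.1 in R 4.3.3 fitted the 4 group means over all 10 arrays (lmFit and trended eBayes, with 6 residual degrees of freedom), 2-sided, with Benjamini-Hochberg adjustment over the 7453 probe sets of a comparison and a threshold of 0.05. The fit was run on simulated data with independent noise and no effect of the sample number, so this does not check the calls made here with or without the block. Sample numbers were read as pairing the arrays, since the deviations from the group means correlated above 0.1 in all 13 same-number pairs (r of 0.106 to 0.678). In groups of 2 arrays the deviations mirror each other, so these values are not independent. Normoxic number 2 arrays correlated with hypoxic number 3 arrays (0.149 to 0.251) about as much as with hypoxic number 2 arrays (0.106 to 0.177). The pairing of normoxic with hypoxic arrays is therefore uncertain. The fit with the number as a block has 4 residual degrees of freedom, and number 3 enters it only through the hypoxic groups. The number 3 arrays thus do not move its hypoxic minus normoxic differences, only their spread. The rule named from the 4 lists each gene called in any comparison and the 3 of smallest p per list in hypoxic wild type against adeno-treated. Genes called only with the block in the hypoxic against the normoxic groups were added after their values were seen. The 5 most like probe sets were taken for Fasn and Scd1. Members and lists were chosen with earlier results of these data known. For arrays, their number limits the precision.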

Additional observations from a re-analysis of the deposited data

How the results depend on the processing

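The results were recomputed with other offsets (2.35 and 18.8), no filter, a filter at the 60th percentile, quantile normalization, no intensity trend, only the groups compared, without the hypoxic number 3 arrays, with all normoxic arrays as reference for wild type, and with the replicate block. The block without the number 3 arrays or without each array, and with another offset, normalization or trend for Fasn, was chosen after seeing the data. Fasn was below 0 in all 34 alternatives for the hypoxic against the normoxic groups (-0.71 to -0.46, adjusted p of 0.00792 to 0.365), of which 12 passed, all with the block. With the block it was -0.59 without number 3 (adjusted p = 0.0201), -0.61 with quantile normalization (0.0147), -0.59 without the trend (0.0359), -0.60 with the smaller offset (0.0155) and -0.57 with the larger (0.0142). Every hypoxic Fasn array lay below every normoxic one, so without the block leaving out arrays could not turn the sign. The alternatives share arrays and some repeat a difference exactly, as the block does without number 3. Their counts are therefore not independent support. For wild type against adeno-treated, 1 of 31 alternatives passed, the block without wild-type number 1 (-0.88, adjusted p = 0.0442).

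The count of members called moved from 0 to 1 in the hypoxic against the normoxic groups under the block, with and without number 3, and ran from 0 to 2 when leaving out 1 array (0 to 1 for wild type against adeno-treated). Of the pathway genes, 1 was called with the block for wild type against adeno-treated, with and without number 3, 7 (5 without number 3) for null against adeno-treated and 10 (11 without number 3) for the hypoxic against the normoxic groups. Leaving out 1 array these ran from 0 to 3, 0 to 7 and 0 to 11, and from 0 to 1 for null against wild type. The 7 of 58 for null against adeno-treated were Cideb, Nr1h3, Fabp5, Hacd3, Angptl4, Lpin1 and Cidea, beside 5.78% of all tested probe sets. On the probe sets used, Fabp5 and Cidea were higher and the others lower. Cidea read 49.5 and 24.9 adeno-treated, 59.7 and 41.1 untreated, 24.2 to 50.1 in wild type and 85 to 184.1 null-labelled. Its null-labelled arrays thus lay above wild type, as for 4.04% of tested probe sets, but it was not called there over all arrays. The block over all arrays changed no member's call other than that of Fasn. With 1 array left out it also called Me1, without untreated number 1 or wild-type number 1, and Srebf1, without null-labelled number 1. The cause was not tested. Where 1 array of a normoxic group is left out, its lone partner takes the spread pooled over the groups.

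Signs of uncalled members turned. Under the block, and without number 3 with or without the block, the hypoxic minus normoxic differences of Gpam, Acly, Thrsp and Scd1 (94056_at) became -0.023, -0.13, -0.10 and -0.029. These settings give equal differences by design. Scd1 (94056_at) in wild type against adeno-treated became -0.13 under the block and -0.11 without number 3, and Me1 in null against wild type -0.11 without number 3. Thrsp in wild type became 0.12 against all normoxic arrays. Leaving out 1 array, with or without the block, gave for wild type against adeno-treated -0.17 to 0.49 (Gpam), -0.42 to 0.040 (Acly), -0.60 to 0.28 (Thrsp), -0.12 to 0.50 (Srebf1) and -0.16 to 0.15 (Scd1, 94056_at). For null against wild type it gave -0.26 to 0.24 (Me1), -0.29 to 0.080 (Gpam), -0.092 to 0.82 (Thrsp), -0.047 to 0.59 (Srebf1), and -0.19 to 0.19 and -0.47 to 0.29 (Scd1). For hypoxic against normoxic groups it gave -0.19 to 0.18 (Gpam), -0.18 to 0.23 (Acly), -0.22 to 0.53 (Thrsp), and -0.10 to 0.22 and -0.55 to 0.030 (Scd1).

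Over all probe sets, the calls for wild type against adeno-treated went from 24 higher and 0 lower to 111 and 55 under the block and 6 and 0 with only the groups compared. They went from 0 and 0 to 1 and 9 under the block for null against wild type, from 26 and 6 to 220 and 211 for null against adeno-treated, from 0 and 0 to 8 and 11 for adeno-treated against untreated, and from 70 and 39 to 426 and 546 for the hypoxic against the normoxic groups (95 and 90 without number 3). Leaving out 1 array, the calls in either direction ran from 3 to 30 for wild type against adeno-treated, 3 to 28 for null against adeno-treated and 33 to 136 for the hypoxic against the normoxic groups without the block, fewest without adeno-treated number 2 in each. With the block they ran from 23 to 218, 50 to 451 and 433 to 857 (0.309% to 2.93%, 0.671% to 6.05% and 5.81% to 11.5%), again fewest without adeno-treated number 2, and from 1 to 27 for null against wild type and 1 to 81 between the normoxic groups. The background shares move with these counts.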
